A study of Mus musculus with 16 samples.

Results

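The genes described here are 42 genes of cell division, from the G1/S cyclins and the MCM helicase to the mitotic kinases and spindle motors. They were chosen by symbol from 20101 gene rows of an RNA-seq table of mouse epididymal white fat (eWAT), and each of the 42 has a row. All 42 passed the filter on low values, an FPKM of 1 in 4 or more libraries, and they lie on 16 chromosomes. Cdc6, Cdk1, Foxm1, Melk, Bub1, Ttk, Cenpe, Cenpf and Kif20a stayed under 1 FPKM in every chow library. These members cleared the filter only through libraries of mice on a high-fat diet. Ccna2, Ccnb1, Ccnb2, Aurkb, Birc5, Cdca8, Plk1, Cdc20, Kif11, Kif23, Tpx2 and Prc1 reached 1 FPKM in some but fewer than 4 chow libraries. They too needed libraries of the high-fat diet to clear the filter. The study profiled 16 fat pads, 1 library a mouse, in groups of 4 at 21 weeks of age: KO-labelled mice on a high-fat diet (HFD), WT-labelled mice on HFD, KO-labelled mice on chow, and WT-labelled mice on chow. The titles of the tested genotype say KO while its genotype field says ApoA4 knockdown, and the labels used here name neither the method, a promoter or Cre that drives it, nor the strain and sex of the mice. All mice ate chow with 5% fat at first, and the HFD groups ate a diet with 60% fat from 5 weeks of age. The design gives HFD against chow within each genotype label and KO-labelled against WT-labelled mice within each diet.

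Values are the authors' FPKM, fragment values scaled to gene length and to library total, so levels can be set against each other between genes, while the number of fragments behind them is unknown. The targeted gene, Apoa4, was listed at 4.93 to 9.63 FPKM in KO-labelled and 0 to 0.29 FPKM in WT-labelled mice on HFD, and at 1.96 to 5.96 FPKM in KO-labelled and 0.09 to 0.29 FPKM in WT-labelled mice on chow, which goes against a loss of this RNA in the libraries labelled KO. Genes of the epididymis, the organ this fat pad lies on, summed to 12093 FPKM in KO-labelled replicate 2 on chow, 5932 FPKM in KO-labelled replicate 4 on HFD and 366 FPKM in KO-labelled replicate 2 on HFD, against at most 47.7 FPKM in each of the other 13 libraries. Adipocyte markers were present in every library, with sums of 3449 to 18264 FPKM on HFD and 16741 to 39008 FPKM on chow.

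A cell that commits to divide raises cyclin E and the E2F transcription factors, which switch on genes for DNA replication. CDC6 and CDT1 then load the ring of MCM helicase subunits onto origins, ribonucleotide reductase and thymidylate synthase make DNA precursors, and PCNA holds the polymerases on the template. Later in the cycle B-MYB and FOXM1 act on promoters with CCAAT boxes and a cell cycle homology region (CHR), and genes of mitosis follow. In resting cells the DREAM complex represses such promoters. Most cells of adult fat do not divide; in obese epididymal fat of mice, proliferation of macrophages within the tissue and of adipocyte precursors is known from labelling studies.

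Promoter windows show how the set divides. RefSeq windows (build GRCm38.p6, 250 bases before to 50 bases after a start) were matched by gene number for 35 of 42 members, which gave 37 windows. Both strands were searched for an E2F motif (TTTGGCGC, TTTCCCGC, TTTCGCGC or TTTGCCGC), a CHR (TTTGAA or TTCGAA) and the CCAAT box. An E2F motif was in 6 of 14 windows of the entry and replication genes (42.9%) and 1 of 23 windows of the mitosis genes (4.35%), against 2.26% of all 32851 windows. Those 6 windows belong to Cdc6, Cdt1, Mcm3, Mcm5, Mcm6 and Mcm7. The windows of Ccne1, E2f1, Pcna, Rrm1, Rrm2, Tyms and Mcm2 hold no E2F motif. The E2f1 window (chr2:154569377-154569676 on the minus strand) lies wholly inside the gene, whose 5′ end is at 154569892. It therefore does not cover the bases before the outermost E2f1 start. The windows of Cdc6 and Aurka and the Mcm7 window chr5:138171217-138171516 also lie wholly inside their genes. A CHR was in 2 of 14 windows of entry and replication genes (14.3%) and 17 of 23 of mitosis genes (73.9%), against 19.2% of all windows. A CCAAT box was in 64.3% of windows of entry and replication genes and 82.6% of mitosis genes, against 37.4% of all windows, and a CHR together with 2 or more CCAAT boxes was in 47.8% of mitosis windows against 2.31% of all. These members were picked as known cell cycle genes, so the shares are a description, and a match of letters is not a bound site.

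**Figure D1:**
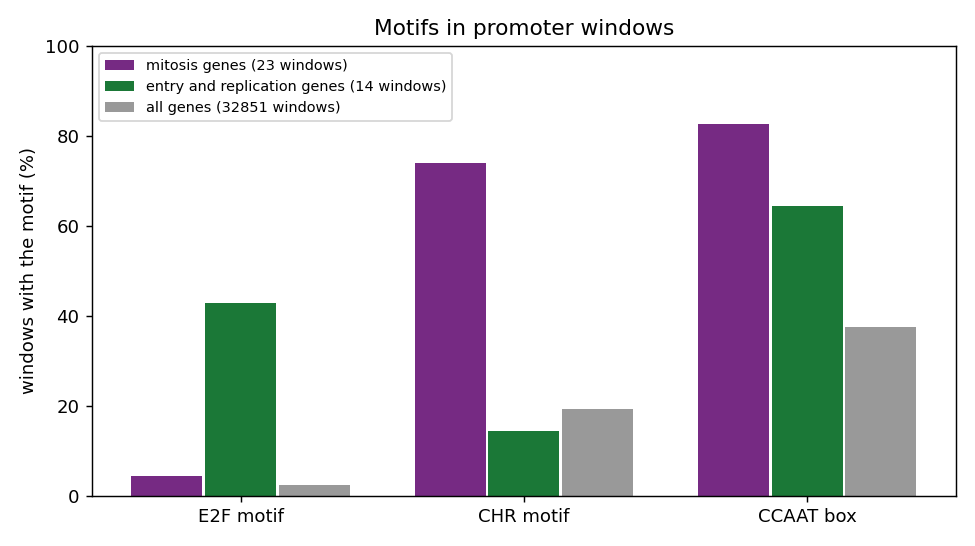
Share of promoter windows (percent, vertical axis) that hold an E2F motif, a CHR or a CCAAT box, for mitosis genes (purple), entry and replication genes (green) and all windows of the RefSeq table (grey). The E2F bar is tallest for entry and replication genes at 42.9%, and the CHR bar for mitosis genes at 73.9%. Among the entry and replication genes, only windows of Cdc6, Cdt1 and Mcm genes hold an E2F motif.

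Of the 37 windows, 7 are printed, 5′ to 3′ in the direction of the gene, with every match in capitals. Differences between diets are ranked here on the log2(FPKM + 1) scale. Of the windows with a CHR and no E2F motif, that of Mki67 (chr7:135716330-135716629 on the minus strand) belongs to the member with the largest difference between diets in WT-labelled fat, and it holds 2 CHR and 3 CCAAT boxes. In WT-labelled fat Mcm5 had the largest difference among windows with an E2F motif (chr8:75109259-75109558 on the plus strand), where 2 E2F matches on opposite strands overlap in 1 run of capitals. Cdk1 (chr10:69352863-69353162 on the minus strand) is the only member with an E2F motif and a CHR among the mitosis genes. Rrm2 (chr12:24708004-24708303 on the plus strand) leads the windows with CCAAT boxes alone, and Birc5 (chr11:117848987-117849286 on the plus strand) those with none of the 3 motifs.
Mki67: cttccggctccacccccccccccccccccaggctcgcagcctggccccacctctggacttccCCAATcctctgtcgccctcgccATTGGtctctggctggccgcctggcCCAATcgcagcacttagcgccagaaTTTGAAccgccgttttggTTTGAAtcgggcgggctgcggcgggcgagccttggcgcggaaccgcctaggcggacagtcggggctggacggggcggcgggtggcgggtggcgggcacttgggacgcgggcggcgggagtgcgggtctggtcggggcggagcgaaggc
Mcm5: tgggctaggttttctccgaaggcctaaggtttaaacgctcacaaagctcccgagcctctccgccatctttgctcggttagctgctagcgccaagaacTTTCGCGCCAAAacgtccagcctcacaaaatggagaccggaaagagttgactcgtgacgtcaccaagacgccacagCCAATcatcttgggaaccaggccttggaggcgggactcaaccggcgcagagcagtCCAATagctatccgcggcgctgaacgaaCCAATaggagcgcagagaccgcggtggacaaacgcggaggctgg
Cdk1: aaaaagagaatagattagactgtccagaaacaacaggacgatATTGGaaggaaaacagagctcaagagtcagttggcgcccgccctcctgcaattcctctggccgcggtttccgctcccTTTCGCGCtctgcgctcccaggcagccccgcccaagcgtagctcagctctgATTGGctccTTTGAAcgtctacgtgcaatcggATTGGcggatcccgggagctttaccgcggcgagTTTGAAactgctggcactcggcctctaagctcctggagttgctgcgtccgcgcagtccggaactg
Rrm2: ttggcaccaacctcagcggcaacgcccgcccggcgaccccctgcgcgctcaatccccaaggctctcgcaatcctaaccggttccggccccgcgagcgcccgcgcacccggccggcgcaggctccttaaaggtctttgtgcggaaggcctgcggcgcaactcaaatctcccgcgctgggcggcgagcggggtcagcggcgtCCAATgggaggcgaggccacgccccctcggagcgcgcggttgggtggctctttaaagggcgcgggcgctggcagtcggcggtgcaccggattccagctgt
Birc5: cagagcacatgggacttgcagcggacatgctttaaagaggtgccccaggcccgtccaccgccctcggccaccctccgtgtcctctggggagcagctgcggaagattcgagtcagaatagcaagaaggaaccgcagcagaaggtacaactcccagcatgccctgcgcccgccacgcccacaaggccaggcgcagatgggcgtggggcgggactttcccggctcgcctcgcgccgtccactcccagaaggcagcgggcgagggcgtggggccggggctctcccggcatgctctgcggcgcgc

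The other windows belong to the 2 members that did not pass the test between diets, shown for that reason after their values were seen. Mcm7 has 2 RefSeq starts, and the window printed (chr5:138171834-138172133 on the minus strand) holds 2 E2F motifs, 1 CHR and 3 CCAAT boxes, with an E2F motif and a CCAAT box sharing a base. The Tyms window (chr5:30073576-30073875 on the minus strand) holds none of the motifs, which says only that these letters are not in these 300 bases.
Mcm7: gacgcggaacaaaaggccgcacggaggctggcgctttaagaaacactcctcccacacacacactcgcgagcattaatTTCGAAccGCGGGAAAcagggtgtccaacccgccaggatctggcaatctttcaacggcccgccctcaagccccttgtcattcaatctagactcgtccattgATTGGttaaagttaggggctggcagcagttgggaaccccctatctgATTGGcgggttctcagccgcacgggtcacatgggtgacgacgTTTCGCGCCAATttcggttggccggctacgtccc
Tyms: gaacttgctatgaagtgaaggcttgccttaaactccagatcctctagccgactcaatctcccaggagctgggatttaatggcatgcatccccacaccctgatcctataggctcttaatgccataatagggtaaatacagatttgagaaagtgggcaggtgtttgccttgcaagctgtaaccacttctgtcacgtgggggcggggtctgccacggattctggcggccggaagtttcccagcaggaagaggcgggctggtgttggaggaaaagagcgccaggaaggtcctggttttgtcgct

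High-fat feeding went with higher RNA of nearly the whole set. In KO-labelled fat 40 of 42 members were higher on HFD than on chow and none was lower (limma, adjusted p under 0.05), where 23.5% of all 12667 genes tested were higher and 15.3% lower. In WT-labelled fat 40 of 42 were higher and none lower, with 24.6% of all genes higher and 17.2% lower. The 2 members that did not pass were Mcm7 and Tyms in both. Among those that passed are the members named above that needed HFD libraries to clear the filter. A high level on HFD helped to bring them into the test, so their calls are not independent of the filter. The median member difference was 1.55 in KO-labelled fat and 1.72 in WT-labelled fat on the log2(FPKM + 1) scale, against 0.08 and 0.06 for all genes tested. All 27 mitosis genes and 13 of 15 entry and replication genes passed in each genotype label. That scale understates the change of genes with low FPKM: with a pseudocount of 0.1 in place of 1 the member median was 2.24 in KO-labelled and 2.67 in WT-labelled fat. The fold of mean FPKM is also given for E2f1, Pcna and Mki67 only.

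**Figure D2:**
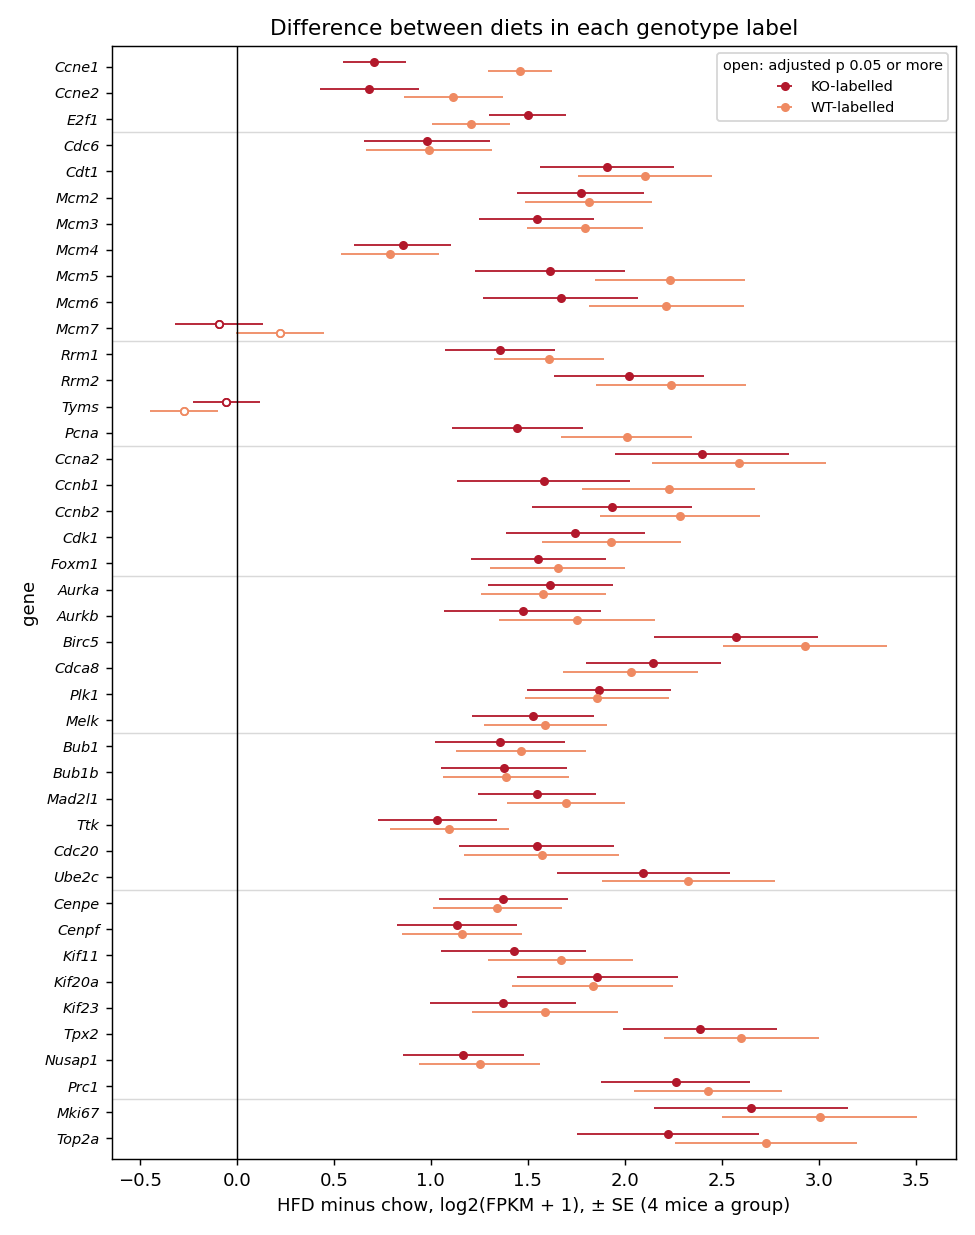
Difference between HFD and chow on the log2(FPKM + 1) scale (horizontal axis) for each of the 42 genes, ordered by role, in KO-labelled (dark red) and WT-labelled (orange) fat. Points are group differences and bars their SE, and open points did not pass. Only Mcm7 and Tyms sit near 0, and Mki67 lies farthest right at 2.65 and 3.0.

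The individual libraries show the same with a wide spread on HFD. The 4 HFD libraries of a genotype label lay above all 4 of its chow libraries for 36 of 42 members in KO-labelled fat (17.5% of all genes) and 39 of 42 in WT-labelled fat (26.1%). Ccne2, Mcm7, Tyms, Ccnb1, Aurkb and Kif23 overlapped in KO-labelled fat, and Mcm4, Mcm7 and Tyms in WT-labelled fat. For 32 members each of the 8 HFD libraries was above each of the 8 chow libraries, as it was for 9.32% of all genes tested. In bulk tissue fewer cells of a type and less RNA per cell cannot be told apart, so these are levels per tissue RNA.

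**Figure D3:**
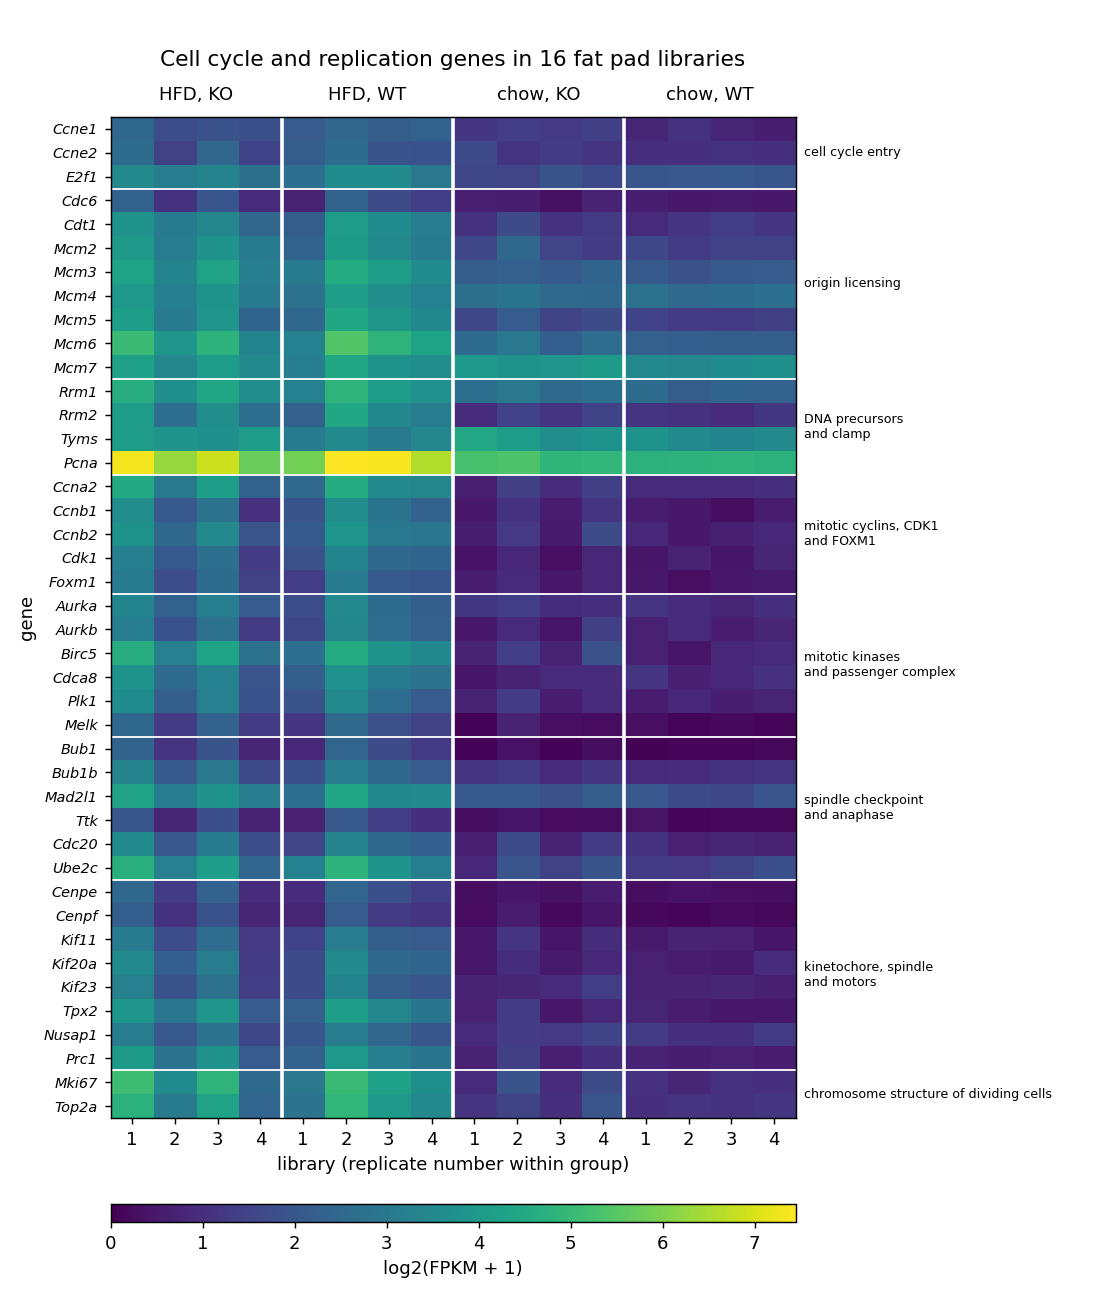
log2(FPKM + 1) of the 42 genes (rows, by role) in the 16 libraries (columns, by group). The HFD columns are on the whole brighter than the chow columns, except in the rows of Mcm7 and Tyms, and WT-labelled replicate 2 and KO-labelled replicate 1 are the brightest of the HFD columns.

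Cell cycle entry was represented by cyclins E1 and E2, which activate CDK2 at the G1/S boundary, and by E2F1, the transcription factor that drives S phase genes. In KO-labelled fat, E2f1 had 10.4, 7.72, 9.08 and 5.77 FPKM on HFD, against 1.97, 1.95, 2.79 and 2.19 FPKM on chow. In WT-labelled fat, E2f1 had 5.63, 11.4, 11 and 6.76 FPKM on HFD, against 3.0, 3.04, 3.21 and 2.94 FPKM on chow. The diets did not overlap, and the lowest HFD library was above the highest chow library. The difference was 1.5 (SE 0.20, adjusted p 0.000139, 3.70-fold) in KO-labelled and 1.21 (SE 0.20, adjusted p 0.000384, 2.85-fold) in WT-labelled fat. Ccne2 was less even. Its levels in KO-labelled fat were 5.16, 1.7, 4.47 and 1.8 FPKM on HFD, against 2.13, 1.22, 1.48 and 1.23 FPKM on chow, where replicate 1 on chow exceeded 2 HFD libraries. WT-labelled fat held 3.55, 5.19, 2.85 and 2.65 FPKM on HFD, against 1.01, 1.03, 1.14 and 1.06 FPKM on chow, with no overlap. Ccne2 passed in KO-labelled fat at an adjusted p of 0.0456 with a difference of 0.68 (SE 0.25), and in WT-labelled fat at 0.00318 with 1.11 (SE 0.25). In KO-labelled fat that call was lost in 9 of 20 alternatives, with adjusted p of 0.0695 with median-of-ratios scaling, 0.182 with quantile normalization, 0.0741 with no filter on low values and 0.123 with the groups compared alone. The other 5 left out 1 library, replicate 1 or 3 on HFD or replicate 2, 3 or 4 on chow (adjusted p 0.0809 to 0.158). Of Ccne2's exon bases 17.4% also belong to Ints8 on the other strand, and reads of the pair cannot be told apart unless strand was used. Ccne1 lay between 2.39 and 4.65 FPKM in the HFD libraries (median 3.49), against 0.55 to 1.64 FPKM in the chow libraries (median 1.19). Its difference was 0.71 in KO-labelled and 1.46 in WT-labelled fat, where its adjusted p, 2.55e-05, was the smallest of the set.

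Of the licensing genes 7 of 8 were higher on HFD in each genotype label. MCM2 to MCM7 form the hexameric replicative helicase, and Mcm6 and Mcm7 had the highest mean levels of the group. In KO-labelled fat, Mcm6 had 32.6, 14.1, 27 and 9.32 FPKM on HFD, against 5.03, 6.97, 3.7 and 5.32 FPKM on chow. In WT-labelled fat, Mcm6 had 8.75, 41.7, 27.5 and 19 FPKM on HFD, against 3.91, 3.63, 3.73 and 3.76 FPKM on chow. The HFD libraries were all above the chow libraries, with KO-labelled replicate 4 and WT-labelled replicate 1 the lowest of them. The difference was 1.67 (SE 0.40, adjusted p 0.00498) in KO-labelled and 2.21 (SE 0.40, adjusted p 0.000685) in WT-labelled fat. Mcm7 differed from its partners. In KO-labelled fat, Mcm7 had 18.1, 9.9, 16.2 and 10.9 FPKM on HFD, against 14.9, 12.9, 13.8 and 15.6 FPKM on chow. In WT-labelled fat, Mcm7 had 8.12, 21.3, 13.2 and 11.8 FPKM on HFD, against 10.3, 9.97, 11.3 and 12 FPKM on chow. Chow libraries lay inside the HFD range in both, and on chow Mcm7 stood at 9.97 to 15.6 FPKM where Mcm6 stood at 3.63 to 6.97 FPKM. The Mcm7 difference was -0.09 in KO-labelled fat (95% interval -0.57 to 0.40, adjusted p 0.782) and 0.22 in WT-labelled fat (-0.26 to 0.71, adjusted p 0.453). Some Mcm7 exon bases also belong to Ap4m1 (7.25%) and Cops6 (1.45%) on the other strand and to the microRNA genes Mir25 and Mir93.

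The other 6 licensing genes all passed. Mcm5 lay between 4.32 and 21.2 FPKM in the HFD libraries (median 12), against 1.4 to 3.52 FPKM in the chow libraries (median 1.85), with differences of 1.61 in KO-labelled and 2.23 in WT-labelled fat. Mcm3 lay between 7.47 and 23.3 FPKM in the HFD libraries (median 13.9), against 2.63 to 4.23 FPKM in the chow libraries (median 3.44), and differed by 1.54 in KO-labelled and 1.80 in WT-labelled fat. Mcm2 showed 1 chow library, KO-labelled replicate 2 at 4.55 FPKM, above the lowest HFD library at 4.2 FPKM, and its differences were 1.77 in KO-labelled and 1.81 in WT-labelled fat. Mcm4 changed least of the licensing genes that passed, 0.85 in KO-labelled and 0.79 in WT-labelled fat, with a chow level of 4.75 to 6.23 FPKM. Cdt1 lay between 3.6 and 16.2 FPKM in the HFD libraries (median 8.90), against 0.9 to 2.29 FPKM in the chow libraries (median 1.26), and differed by 1.91 in KO-labelled and 2.10 in WT-labelled fat. Cdc6, at 0.26 to 0.67 FPKM on chow, differed by 0.98 (adjusted p 0.0269) in KO-labelled and 0.99 (adjusted p 0.0237) in WT-labelled fat. In KO-labelled fat the Cdc6 call was lost with quantile normalization (adjusted p 0.111) and without replicate 1 or 3 on HFD or replicate 3 on chow (adjusted p 0.0709 to 0.0958), and the Mcm4 call without replicate 1 or 3 on HFD (adjusted p 0.0503 to 0.0551). In WT-labelled fat the Cdc6 call was lost without replicate 2 or 3 on HFD or replicate 2 or 4 on chow (adjusted p 0.0504 to 0.0868), and the Mcm4 call without replicate 2 or 3 on HFD or replicate 2 on chow (adjusted p 0.0523 to 0.0752).

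Among the makers of DNA precursors and the clamp, Pcna had the highest level of all 42 members. In KO-labelled fat, Pcna had 158, 78.3, 117 and 52.1 FPKM on HFD, against 37.6, 40.6, 28.5 and 29.3 FPKM on chow. In WT-labelled fat, Pcna had 57.4, 173, 163 and 95.2 FPKM on HFD, against 26.5, 27, 27.8 and 26.4 FPKM on chow. No chow library reached the lowest HFD library at 52.1 FPKM. The difference was 1.45 (SE 0.34, adjusted p 0.00430, 2.98-fold) in KO-labelled and 2.01 (SE 0.34, adjusted p 0.000422, 4.54-fold) in WT-labelled fat. Tyms, the thymidylate synthase that makes dTMP, did not follow. In KO-labelled fat, Tyms had 16.2, 13.6, 12.4 and 16.5 FPKM on HFD, against 21.6, 15.9, 11.9 and 12.9 FPKM on chow. In WT-labelled fat, Tyms had 7.51, 10.6, 7.62 and 9.79 FPKM on HFD, against 12.9, 10.9, 9.22 and 10.5 FPKM on chow. The diets overlapped in both genotype labels. The Tyms difference was -0.06 in KO-labelled fat (95% interval -0.42 to 0.31, adjusted p 0.826) and -0.27 in WT-labelled fat (-0.64 to 0.10, adjusted p 0.222). Both subunits of ribonucleotide reductase passed. Rrm1, the large subunit, lay between 8.66 and 27.8 FPKM in the HFD libraries (median 14.4), against 3.54 to 6.86 FPKM in the chow libraries (median 5.04). Rrm2, the small subunit whose level follows S phase, lay between 3.87 and 21.2 FPKM in the HFD libraries (median 8.89), against 0.93 to 1.86 FPKM in the chow libraries (median 1.21). Rrm1 differed by 1.35 in KO-labelled and 1.61 in WT-labelled fat, and Rrm2 by 2.02 in KO-labelled and 2.24 in WT-labelled fat.

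**Figure D4:**
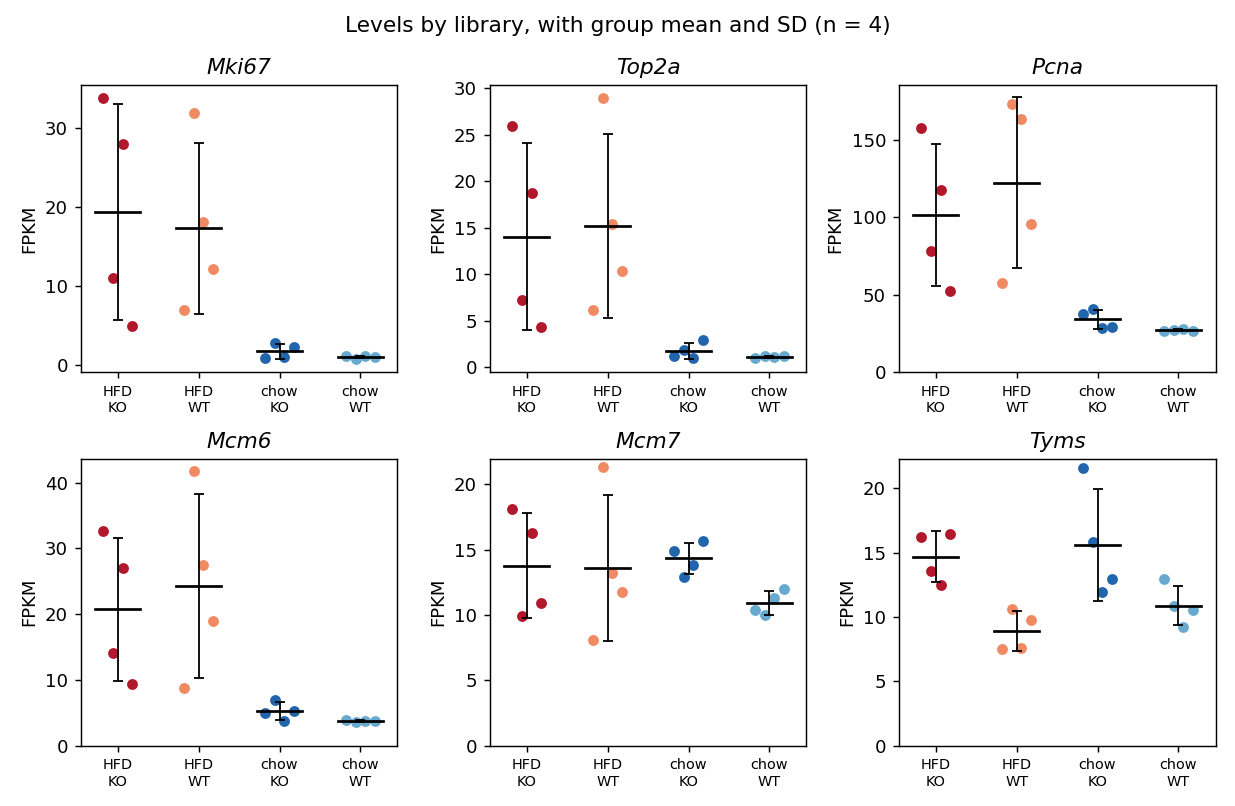
FPKM of 6 genes (vertical axes, from 0) in the 4 groups, with HFD left of chow and KO left of WT; points are mice, lines the group mean and bars the SD. Mki67, Top2a, Pcna and Mcm6 stand higher on HFD with a wide spread, while the diets overlap for Mcm7 and Tyms, and Tyms on HFD is higher in each KO-labelled mouse, at 12.4 to 16.5 FPKM, than in each WT-labelled mouse, at 7.51 to 10.6 FPKM.

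Of the 2 members that act on chromosomes of dividing cells, Mki67 had the largest difference of the whole set on the log2(FPKM + 1) scale in each genotype label. That rank depends on the scale. Over the alternatives the WT-labelled difference reached 3.99 for Birc5 and 3.78 for Mki67, and the KO-labelled one 3.38 and 3.79. By fold, Bub1 stood further apart, with medians of 1.86 FPKM on HFD and 0.07 FPKM on chow, against 15.1 and 1.05 FPKM for Mki67. In KO-labelled fat, Mki67, the gene of the Ki-67 proliferation antigen, had 33.7, 11, 27.9 and 4.88 FPKM on HFD, against 0.88, 2.78, 0.94 and 2.3 FPKM on chow. In WT-labelled fat, Mki67 had 6.96, 31.9, 18 and 12.1 FPKM on HFD, against 1.09, 0.75, 1.15 and 1.0 FPKM on chow. The diets did not overlap, and the HFD libraries spanned a 6.91-fold range. Mean Mki67 was 19.4 ± 13.7 FPKM on HFD and 1.73 ± 0.962 FPKM on chow in KO-labelled fat, an 11.2-fold difference, and 17.2 ± 10.8 FPKM on HFD and 0.998 ± 0.176 FPKM on chow in WT-labelled fat, a 17.3-fold difference (SD, n = 4 each). On the log2(FPKM + 1) scale that was 2.65 (SE 0.50, adjusted p 0.00129) and 3.0 (SE 0.50, adjusted p 0.000407) by limma. Top2a encodes the topoisomerase that untangles sister chromatids. In KO-labelled fat, Top2a had 25.9, 7.28, 18.7 and 4.35 FPKM on HFD, against 1.19, 1.86, 1.03 and 2.9 FPKM on chow. In WT-labelled fat, Top2a had 6.2, 29, 15.4 and 10.4 FPKM on HFD, against 1.03, 1.17, 1.11 and 1.26 FPKM on chow. Here too the diets stood apart, by 2.22 (SE 0.47, adjusted p 0.00231) in KO-labelled and 2.73 (SE 0.47, adjusted p 0.00048) in WT-labelled fat.

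All 5 genes of the mitotic cyclins, CDK1 and FOXM1 were higher on HFD in both genotype labels. Cyclin A2 pairs with CDK2 and CDK1 in S phase and G2. In KO-labelled fat, Ccna2 had 22.4, 7.0, 16.8 and 3.92 FPKM on HFD, against 0.56, 1.64, 0.92 and 1.68 FPKM on chow. In WT-labelled fat, Ccna2 had 4.89, 23.5, 10.5 and 9.38 FPKM on HFD, against 0.85, 0.9, 0.86 and 1.01 FPKM on chow. The chow libraries stayed under 2 FPKM and every HFD library was above them. Differences were 2.40 (SE 0.45, adjusted p 0.00118) in KO-labelled and 2.59 (SE 0.45, adjusted p 0.000519) in WT-labelled fat. Exosc9 shares 12.5% of the Ccna2 exon bases on the other strand. Cyclin B2 activates CDK1 at the onset of mitosis. In KO-labelled fat, Ccnb2 had 13.2, 4.69, 10.4 and 2.93 FPKM on HFD, against 0.55, 1.35, 0.45 and 2.22 FPKM on chow. In WT-labelled fat, Ccnb2 had 3.3, 14.1, 7.09 and 6.56 FPKM on HFD, against 0.77, 0.43, 0.56 and 0.79 FPKM on chow. KO-labelled replicates 2 and 4 were the highest of the chow libraries, yet below the lowest HFD library at 2.93 FPKM. Ccnb2 differed by 1.93 (SE 0.41, adjusted p 0.00246) in KO-labelled and 2.28 (SE 0.41, adjusted p 0.000671) in WT-labelled fat. Its sister Ccnb1 lay between 1.09 and 11.8 FPKM in the HFD libraries (median 5.09), against 0.2 to 1.18 FPKM in the chow libraries (median 0.480), the widest spread among HFD libraries of the set at 10.8-fold. Cdk1, the kinase of mitosis, lay between 1.45 and 9.22 FPKM in the HFD libraries (median 4.50), against 0.24 to 0.77 FPKM in the chow libraries (median 0.510). Foxm1, a transcription factor of G2 and M phase genes, lay between 1.54 and 7.49 FPKM in the HFD libraries (median 3.12), against 0.24 to 0.84 FPKM in the chow libraries (median 0.440). The KO-labelled differences were 1.58 for Ccnb1, 1.74 for Cdk1 and 1.55 for Foxm1. The WT-labelled differences were 2.23 for Ccnb1, 1.93 for Cdk1 and 1.65 for Foxm1.

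The 6 mitotic kinases and chromosomal passenger genes all passed. Birc5 (survivin) and Cdca8 (borealin) bring Aurora B to the centromere. In KO-labelled fat, Birc5 had 23.9, 8.54, 19.1 and 5.79 FPKM on HFD, against 0.68, 1.63, 0.63 and 2.58 FPKM on chow. In WT-labelled fat, Birc5 had 5.63, 22.7, 13.3 and 10.02 FPKM on HFD, against 0.59, 0.34, 0.82 and 0.9 FPKM on chow. The groups did not overlap. On the log2(FPKM + 1) scale Birc5 was second to Mki67 in size, 2.57 (SE 0.42, adjusted p 0.000546) in KO-labelled and 2.93 (SE 0.42, adjusted p 0.000155) in WT-labelled fat. In KO-labelled fat, Cdca8 had 12.9, 5.09, 8.63 and 2.88 FPKM on HFD, against 0.38, 0.68, 0.85 and 0.93 FPKM on chow. In WT-labelled fat, Cdca8 had 3.81, 12.6, 7.27 and 5.93 FPKM on HFD, against 1.27, 0.56, 0.82 and 1.08 FPKM on chow. Cdca8 also kept the diets apart, by 2.15 (SE 0.35, adjusted p 0.000498) in KO-labelled and 2.03 (SE 0.35, adjusted p 0.000476) in WT-labelled fat. Aurkb, the kinase of that complex, lay between 1.45 and 9.86 FPKM in the HFD libraries (median 4.57), against 0.35 to 1.67 FPKM in the chow libraries (median 0.670), with 1 chow library, KO-labelled replicate 4, above the lowest HFD library. Aurka, the centrosomal Aurora kinase, lay between 2.45 and 10.5 FPKM in the HFD libraries (median 4.60), against 0.74 to 1.58 FPKM in the chow libraries (median 1.03). Plk1, which acts from mitotic entry to cytokinesis, lay between 2.66 and 11.4 FPKM in the HFD libraries (median 4.60), against 0.5 to 1.47 FPKM in the chow libraries (median 0.685). Across these and Melk, a kinase high in dividing cells at 0.06 to 0.67 FPKM on chow, differences ran from 1.47 to 1.87 in KO-labelled and 1.58 to 1.85 in WT-labelled fat.

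The spindle checkpoint holds anaphase until every kinetochore is attached, and its 6 genes all passed. UBE2C is the E2 enzyme of the anaphase-promoting complex. In KO-labelled fat, Ube2c had 25, 8.43, 16.8 and 4.4 FPKM on HFD, against 0.76, 2.91, 1.7 and 2.81 FPKM on chow. In WT-labelled fat, Ube2c had 8.6, 27, 13.3 and 8.36 FPKM on HFD, against 1.4, 1.35, 1.88 and 2.51 FPKM on chow. All HFD libraries exceeded all chow libraries, and the differences were 2.09 (SE 0.44, adjusted p 0.00244) in KO-labelled and 2.33 (SE 0.44, adjusted p 0.00101) in WT-labelled fat. Tnnc2, on the other strand, shares 22.8% of its exon bases. MAD2, encoded by Mad2l1, inhibits that complex through CDC20. In KO-labelled fat, Mad2l1 had 18.6, 7.97, 12.8 and 7.79 FPKM on HFD, against 3.12, 3.32, 2.57 and 3.58 FPKM on chow. In WT-labelled fat, Mad2l1 had 5.56, 20.5, 10.2 and 10.4 FPKM on HFD, against 3.07, 2.33, 2.08 and 2.93 FPKM on chow. Mad2l1 did not overlap between diets and differed by 1.55 (SE 0.30, adjusted p 0.00153) in KO-labelled and 1.70 (SE 0.30, adjusted p 0.000637) in WT-labelled fat. Cdc20, the activator of the anaphase-promoting complex, lay between 1.95 and 10.7 FPKM in the HFD libraries (median 4.13), against 0.56 to 2.16 FPKM in the chow libraries (median 0.710). Bub1b (BUBR1) lay between 2.12 and 9.11 FPKM in the HFD libraries (median 4.06), against 0.84 to 1.52 FPKM in the chow libraries (median 1.14). The checkpoint kinases Bub1 and Ttk were the lowest of the group. Bub1 lay between 0.71 and 4.37 FPKM in the HFD libraries (median 1.86), against 0.04 to 0.29 FPKM in the chow libraries (median 0.0700), and differed by 1.36 in KO-labelled and 1.47 in WT-labelled fat. Ttk lay between 0.6 and 3.23 FPKM in the HFD libraries (median 1.34), against 0.09 to 0.35 FPKM in the chow libraries (median 0.195), and differed by 1.03 in KO-labelled and 1.09 in WT-labelled fat. In KO-labelled fat the Ttk call was lost without replicate 1 on HFD (adjusted p 0.0582) or replicate 3 on HFD (adjusted p 0.0553) and with quantile normalization (adjusted p 0.0808).

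Kinetochore, spindle and motor genes passed in 8 of 8 cases in each genotype label. TPX2 activates Aurora A and nucleates spindle microtubules. In KO-labelled fat, Tpx2 had 14.2, 6.54, 13.8 and 3.4 FPKM on HFD, against 0.61, 1.47, 0.39 and 0.8 FPKM on chow. In WT-labelled fat, Tpx2 had 3.9, 16.9, 9.67 and 6.41 FPKM on HFD, against 0.72, 0.49, 0.43 and 0.4 FPKM on chow. The groups stood apart, by 2.39 (SE 0.40, adjusted p 0.000599) in KO-labelled and 2.60 (SE 0.40, adjusted p 0.000229) in WT-labelled fat. PRC1 bundles microtubules of the central spindle. In KO-labelled fat, Prc1 had 15.8, 6.15, 13.2 and 3.43 FPKM on HFD, against 0.68, 1.65, 0.58 and 1.04 FPKM on chow. In WT-labelled fat, Prc1 had 4.04, 14.6, 8.08 and 6.29 FPKM on HFD, against 0.67, 0.53, 0.61 and 0.51 FPKM on chow. Prc1 likewise showed no overlap and differed by 2.26 (SE 0.38, adjusted p 0.000648) in KO-labelled and 2.43 (SE 0.38, adjusted p 0.000271) in WT-labelled fat. Rccd1 shares 11.1% of its exon bases on the other strand. The kinesin Kif11, which separates the spindle poles, lay between 1.37 and 7.77 FPKM in the HFD libraries (median 3.62), against 0.36 to 1.17 FPKM in the chow libraries (median 0.520). Kif20a, a kinesin of cytokinesis, lay between 1.52 and 10.6 FPKM in the HFD libraries (median 4.44), against 0.39 to 0.95 FPKM in the chow libraries (median 0.555), and Cdc23 shares 29.3% of its exon bases. Kif23, a motor of the midbody, lay between 1.57 and 9.24 FPKM in the HFD libraries (median 3.26), against 0.56 to 1.63 FPKM in the chow libraries (median 0.695). Cenpe and Cenpf at the kinetochore and Nusap1 on spindle microtubules completed the group, whose differences ran from 1.14 to 2.39 in KO-labelled and 1.16 to 2.60 in WT-labelled fat.

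The HFD libraries differed among themselves as a body. Mean log2(FPKM + 1) over the 42 members was 3.72, 2.56, 3.38 and 2.16 in KO-labelled mice on HFD, 2.21, 3.78, 3.06 and 2.73 in WT-labelled mice on HFD, 1.25, 1.62, 1.21 and 1.54 in KO-labelled mice on chow, and 1.25, 1.15, 1.18 and 1.25 in WT-labelled mice on chow. WT-labelled replicate 2 was the highest HFD library for 29 members and KO-labelled replicate 1 for 12, and these libraries were among the top 2 for 41 and 40 members. KO-labelled replicate 4 was lowest for 21 members and WT-labelled replicate 1 for 19. The 1 member highest in KO-labelled replicate 4 was Tyms. Mcm7, although flat between diets, in part followed the order of the others on HFD, with 21.3 FPKM in WT-labelled replicate 2 and 8.12 FPKM in WT-labelled replicate 1. At the low end it did not, with 10.9 FPKM in KO-labelled replicate 4 and 9.9 FPKM in KO-labelled replicate 2. The ratio of the highest to the lowest HFD library had a median of 4.79 over the members (1.95 for Ccne1 to 10.8 for Ccnb1), against 2.09 over all tested genes with no library at 0. The members took 0.0475 to 0.169% of all FPKM in HFD libraries and 0.0201 to 0.0327% in chow libraries.

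Markers of some other cell types moved with the diet. Over all genes tested 23.5% were higher and 15.3% lower on HFD in KO-labelled fat, and 24.6% and 17.2% in WT-labelled fat. Marker sums of macrophages, lipid-associated macrophages, fibroblasts, B and plasma cells and, in reverse, adipocytes went in part with the order of the HFD libraries. Macrophage markers (14 genes, 12 higher and 1 lower on HFD in each genotype label) summed to 10204, 4695, 7655 and 3065 FPKM in KO-labelled mice on HFD and 2190, 7060, 8517 and 4719 FPKM in WT-labelled mice on HFD. On chow they summed to 1143 to 1424 FPKM in KO-labelled and 1501 to 1619 FPKM in WT-labelled mice. The HFD libraries with the lowest macrophage sums, WT-labelled replicate 1 and KO-labelled replicate 4, were also those with the lowest member means. The 4 with the highest member means had the 4 highest macrophage sums in another order, and WT-labelled replicate 2, the highest for the members, was the fourth. Fibroblast and progenitor sums on HFD were also lowest in WT-labelled replicate 1 (1219 FPKM) and KO-labelled replicate 4 (1285 FPKM). WT-labelled replicate 3 (1347 FPKM) was next, and KO-labelled replicate 1 the highest (2245 FPKM). Adipocyte sums on HFD were highest in WT-labelled replicate 1 (18264 FPKM) and KO-labelled replicate 4 (15028 FPKM) and lowest in KO-labelled replicate 1 (3449 FPKM). Markers of lipid-associated macrophages rose in 10 of 11 cases in each genotype label. Adipocyte markers fell in 9 of 11 cases in KO-labelled and 8 of 11 in WT-labelled fat. Of the T and NK cell markers 1 of 10 tested was higher in KO-labelled fat and 4 of 10 were lower in WT-labelled fat, with sums of 10.2 to 36.5 FPKM on HFD that were highest in KO-labelled replicate 4, the library with the lowest member mean. Neutrophil and mast cell markers were higher in 3 of 7 cases in KO-labelled and 2 of 7 in WT-labelled fat, with sums of 55.5 to 418 FPKM on HFD (highest in KO-labelled replicate 1) and 22.5 to 49.8 FPKM on chow. Mesothelial markers were lower in 3 of 8 cases in KO-labelled and 4 of 8 in WT-labelled fat. Of 6 B and plasma cell markers 1 was higher in each genotype label. Their sums on HFD were highest in WT-labelled replicate 2 (112 FPKM) and KO-labelled replicate 1 (96.6 FPKM). They were lowest in WT-labelled replicate 1 (33.6 FPKM) and KO-labelled replicate 4 (47.8 FPKM). Sdc1 alone gave 91.1, 45.9, 20.7 and 19.3 FPKM of these sums, in that order. Of 5 dendritic cell markers 1 was higher and 1 lower in KO-labelled and 2 were lower in WT-labelled fat. Of 9 endothelial markers 1 was higher in KO-labelled and 0 in WT-labelled fat, and 0 of 3 erythroid markers passed in either. Fibroblast and progenitor markers were higher in 5 of 11 cases in each, and lower in none of 11 cases in KO-labelled and 2 of 11 in WT-labelled fat. None of the markers of macrophages, adipocytes, fibroblasts or endothelium was at 0 in a whole group. The part of these cell types in the member differences was not tested. Without the 3 libraries with epididymal genes 40 of 42 members were higher in both genotype labels, and the median member difference in KO-labelled fat was 2.23. Of the KO-labelled mice on HFD that fit keeps only replicates 1 and 3, whose member means are above those of the mice left out.

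**Figure D5:**
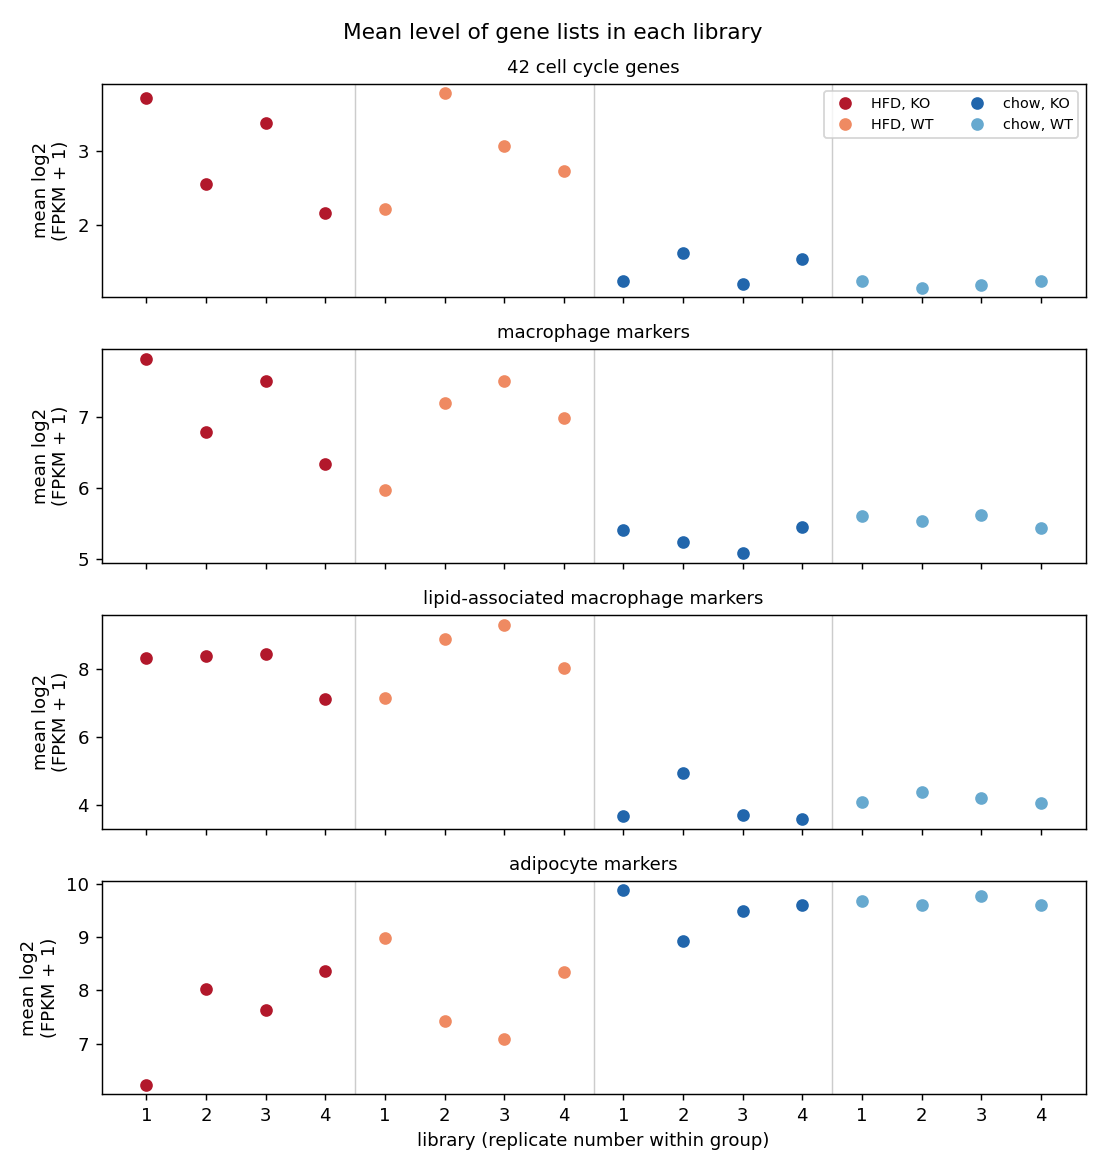
Mean log2(FPKM + 1) of the 42 cell cycle genes and of the macrophage, lipid-associated macrophage and adipocyte marker lists (panels from top) in each library, by group. On HFD the cell cycle mean runs from 2.16 to 3.78. The 2 lowest libraries are also lowest for both macrophage lists and highest for the adipocyte list. The vertical axes do not start at 0.

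Genes of the same processes outside the set, from lists chosen with earlier results known, moved less uniformly. Of 59 further mitosis genes tested 47 were higher and 1 lower in KO-labelled fat (median 1.17), and 48 higher and 1 lower in WT-labelled fat (median 1.27). Stmn1, a microtubule destabiliser, averaged 47.7 ± 19.0 FPKM on HFD and 14.4 ± 14.6 FPKM on chow in KO-labelled fat, and 51.6 ± 25.3 FPKM on HFD and 4.56 ± 0.976 FPKM on chow in WT-labelled fat (SD, n = 4 each). Spc25 of the kinetochore differed by 2.14 in KO-labelled and 2.49 in WT-labelled fat. The 1 that fell was Pttg1 (securin, the inhibitor of separase), by 0.80 in KO-labelled and 1.03 in WT-labelled fat. Of 44 replication genes 21 were higher and 3 lower in KO-labelled fat (median 0.57), and 32 higher and 1 lower in WT-labelled fat (median 0.72). Tk1, the salvage enzyme that also makes dTMP, differed by 2.38 (adjusted p 0.000415) in KO-labelled and 2.80 (adjusted p 9.62e-05) in WT-labelled fat, and Uhrf1, which carries DNA methylation through replication, by 1.98 in KO-labelled and 2.55 in WT-labelled fat. The lower one in WT-labelled fat was Orc3, an origin recognition subunit, at -0.46. Of 23 G1 genes 9 were higher and 2 lower in KO-labelled fat (median 0.44), and 12 higher and 2 lower in WT-labelled fat (median 0.52). Cyclin D1 (Ccnd1) and its kinase Cdk6 were among those higher, Ccnd1 by 1.57 in KO-labelled and 2.24 in WT-labelled fat and Cdk6 by 1.80 in KO-labelled and 2.30 in WT-labelled fat. Lin52 of the DREAM complex fell by 0.82 in KO-labelled and 0.86 in WT-labelled fat, and Rbl2, a pocket protein of that complex, by 0.37 in WT-labelled fat. Of 8 genes of CDK inhibitors and p53, 3 were higher and 1 lower in KO-labelled fat (median 0.04), and 2 higher and 1 lower in WT-labelled fat (median 0.34). Trp53 itself, the gene of p53, was higher by 0.81 in KO-labelled and 0.51 in WT-labelled fat. The CDK inhibitor Cdkn1a (p21) was higher too, by 2.77 in KO-labelled and 2.14 in WT-labelled fat. Cdkn1b (p27) differed by 0.10 (adjusted p 0.524) in KO-labelled fat and fell by 0.74 in WT-labelled fat (adjusted p 0.000221), and the difference between those, 0.83, passed the interaction test (adjusted p 0.0378). Cdkn2c (p18), an inhibitor of CDK4 and CDK6, averaged 26.6 ± 7.66 FPKM on HFD and 92.1 ± 32.5 FPKM on chow in KO-labelled fat (SD, n = 4 each), where it fell by 1.74 (adjusted p 0.000842). In WT-labelled fat Cdkn2c averaged 33.5 ± 15.6 FPKM on HFD and 35.2 ± 4.21 FPKM on chow, a difference of -0.18 (adjusted p 0.665), and the interaction did not pass (-1.56, adjusted p 0.188). Cdkn2a, the locus of p16 and p19ARF in the mouse, differed by 0.97 (adjusted p 0.00618) in KO-labelled and 0.49 (adjusted p 0.117) in WT-labelled fat. Between genotype labels Cdkn1b was higher in KO-labelled mice on HFD (0.72, adjusted p 0.0370), and on chow Cdkn2c was higher (1.31, adjusted p 0.0483) and Cdkn1a lower (-1.14, adjusted p 0.00896) in KO-labelled mice.

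Between genotype labels no member passed. On HFD 0 of 42 members differed between KO-labelled and WT-labelled fat, where 0.0316% of all genes tested did (4 genes), and 1 member had an unadjusted p under 0.05, against 11.8% of all genes. Member differences ran from -0.30 (Ccnb1) to 0.67 (Tyms) with a median of 0.02, against 0.09 for all genes. Of the members 23 of 42 were positive, where 64.8% of all genes were. The sign of that median rests on the libraries used, since leaving out 1 library at a time gave medians of -0.24 to 0.30. Median-of-ratios scaling gave -0.08 and quantile normalization -0.18. Leaving out the 3 libraries with epididymal genes gave 0.61. Of the KO-labelled mice on HFD that keeps only replicates 1 and 3, with member means of 3.72 and 3.38. It drops replicates 2 and 4, with lower means of 2.56 and 2.16. For Mki67 the interval of the difference was -1.04 to 1.10 and for Pcna -0.98 to 0.46, so changes of 2-fold in either direction lie within the Mki67 interval. Tyms averaged 14.7 ± 1.99 FPKM in KO-labelled and 8.88 ± 1.55 FPKM in WT-labelled mice on HFD (SD, n = 4 each). It was the 1 member whose KO-labelled libraries all lay above the WT-labelled libraries, as 5.81% of all genes did, with a difference of 0.67 (95% interval 0.30 to 1.04) that did not pass adjustment (0.267).

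On chow 0 of 42 members passed between genotype labels, where 1.41% of all genes tested did, and 2 members had an unadjusted p under 0.05, against 14.7% of all genes. Of the members 38 of 42 were positive, where 64.5% of all genes were. The member median was 0.19, against 0.09 for all genes. Leaving out KO-labelled replicate 2 alone gave 0.095 for the members and 0.03 for all genes, leaving out each of the other libraries gave 0.15 to 0.27 for the members, and a pseudocount of 0.1 gave 0.39. KO-labelled replicates 2 and 4 carried the highest member means of the chow libraries, and replicate 2 is the one with the most epididymal RNA. Every KO-labelled library was above every WT-labelled library for 5 members (8.94% of all genes), namely Ccne1, Ccne2, Mcm5, Mcm7 and Pcna, and E2f1 had every one below (6.25%). Ccne1 had 1.25, 1.55, 1.36 and 1.64 FPKM in KO-labelled and 0.69, 1.13, 0.72 and 0.55 FPKM in WT-labelled mice, a difference of 0.47 (95% interval 0.13 to 0.82, adjusted p 0.199). Pcna stood at 28.5 to 40.6 FPKM in KO-labelled and 26.4 to 27.8 FPKM in WT-labelled mice, a difference of 0.31 (-0.41 to 1.03, adjusted p 0.723). E2f1 stood at 1.95 to 2.79 FPKM in KO-labelled and 2.94 to 3.21 FPKM in WT-labelled mice, a difference of -0.33 (-0.76 to 0.09, adjusted p 0.467). Tyms differed by 0.45 (0.09 to 0.82, adjusted p 0.245) on chow, in the same direction as on HFD.

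Whether the diet difference itself differed between genotype labels was tested as the interaction, the KO-labelled minus the WT-labelled diet difference. No member passed (0 of 42, against 0.292% of all genes), and 1 had an unadjusted p under 0.05, against 10.1% of all genes. Of the members 34 of 42 were negative and 8 positive, where 52.3% of all genes were positive. The member median was -0.19, against 0.02 for all genes. Without the 3 libraries with epididymal genes it was 0.53, with only replicates 1 and 3 left of the KO-labelled mice on HFD. Leaving out 1 library at a time gave -0.43 to 0.14, positive without KO-labelled replicate 4 or WT-labelled replicate 2 on HFD. The 1 member with an unadjusted p under 0.05 was Ccne1 at -0.75 (95% interval -1.24 to -0.26, adjusted p 0.234). Its HFD libraries had 4.65, 2.39, 2.75 and 2.55 FPKM in KO-labelled and 3.37, 4.54, 3.61 and 3.93 FPKM in WT-labelled mice, which overlap. The intervals for Mki67 (-1.87 to 1.16) and Pcna (-1.58 to 0.45) include 0 and are wide.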

How the data were processed

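RNA-seq libraries were made from total RNA of eWAT taken from 21-week-old mice, per the labels' protocols, and the submitters' processing notes name STAR 2.7 and the builds GRCm38.p6 and mm10. The authors deposited 1 table of FPKM for 16 libraries, while no source used here gives the counting tool, the strand setting or the depth, and therefore no counting interval is printed. From 34510 rows, 1 blank row and 14408 circular RNA rows were set aside, which left 20101 gene rows. Sums of deposited FPKM per library ran from 413167 to 468186.

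The 12667 genes that reached an FPKM of 1 in 4 or more libraries were tested as log2(FPKM + 1) with limma 3.58.1 in R 4.3.3, with 4 group means, a variance trend and Benjamini-Hochberg adjustment over all genes tested, and called at an adjusted p under 0.05. The fit was tested on simulated data. The 42 members, the gene and marker lists and the tests were chosen with earlier results of these data known. Values in every library are given for Mki67, Top2a and the 2 members of each other role with the highest mean FPKM. In the other lists the genes named are the 2 with the largest rise and the 2 with the largest fall in WT-labelled fat among those that passed, and each CDK inhibitor that passed a test. Shared exon bases come from GENCODE vM21, and promoter sequences from RefSeq. Each library is a separate mouse per the labels.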

Additional observations from a re-analysis of the deposited data

Results flagged for a closer look

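Of 172 groups of 4 values (the 42 members and Apoa4 in each group), 5 held a library far from the other 3 by Dixon's 95% criterion, and chance gives about 1 in 20. On HFD, Ccne1 stood at 4.65 FPKM in KO-labelled replicate 1, against 2.39 to 2.75 FPKM in the other KO-labelled mice. On chow, KO-labelled replicate 2, the library with the most epididymal RNA, was high for Mcm2 at 4.55 FPKM, against 1.5 to 2.02 FPKM in the others. It was also high for Ttk at 0.35 FPKM, against 0.19 to 0.21 FPKM. Among WT-labelled mice on chow, Ttk was high in replicate 1 at 0.31 FPKM, against 0.09 to 0.11 FPKM, and Foxm1 was low in replicate 2 at 0.24 FPKM, against 0.42 to 0.45 FPKM.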

How the results depend on the processing

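The diet counts of 40 of 42 members ran from 36 to 40 in KO-labelled and 38 to 40 in WT-labelled fat when each library was left out in turn, and the genotype and interaction counts stayed at 0 to 0. With a mean FPKM of at least 5, 17 of 19 members tested passed in each genotype label, since fewer were tested. Other scalings gave 37 to 40 members in KO-labelled and 40 to 41 in WT-labelled fat. The sign for members that had not passed turned in some settings. Mcm7 in KO-labelled fat was 0.078 with array weights, 0.20 without the 3 libraries with epididymal genes, 0.043 without replicate 2 on HFD and 0.0020 without replicate 4 on HFD (range -0.23 to 0.043 without 1 library), and in WT-labelled fat -0.0048 without replicate 2 on HFD. Tyms in KO-labelled fat was 0.02 without replicate 3 on HFD and 0.11 without replicate 1 on chow (range -0.16 to 0.11 without 1 library). In WT-labelled fat Mcm7 passed with array weights (0.42, adjusted p 0.0393) and Tyms with quantile normalization (-0.38, adjusted p 0.0390). The causes were not tested. Of 854 member values under alternatives in each genotype label, 18 in KO-labelled fat (Ccne2, Cdc6, Mcm4 and Ttk) and 7 in WT-labelled fat (Cdc6 and Mcm4) lost their call. The labels used here state no pairing of mice by replicate number. Correlations of same-numbered deviations ran from -0.63 to 0.367, which with 4 mice a group cannot decide whether mice were paired. With the replicate block 40 of 42 members passed in each genotype label and 0 in the genotype comparisons and the interaction, and genes called on chow between genotype labels numbered 115. Over all genes, KO-labelled against WT-labelled fat on HFD gave 4 calls, 0 to 19 under alternatives. On chow it gave 178, against 1156 with array weights, 418 with the groups alone, 365 at adjusted p under 0.1, 87 at 2-fold or more and 55 to 159 without 1 library. The interaction gave 37, against 418 with array weights, 66 at adjusted p under 0.1, 18 with the block and 12 to 46 without 1 library. The diet calls numbered 4922 in KO-labelled fat, against 7496 with array weights and 1938 at 2-fold or more, and 5304 in WT-labelled fat, against 2059 at 2-fold or more. Of diet calls over all genes, 60.5% were higher in KO-labelled fat (49.9% with median-of-ratios scaling, 42.3% with quantile normalization) and 58.8% in WT-labelled fat (45.8% with quantile normalization), while with these 2 scalings and a constant sum per library the member medians ran from 1.36 to 1.57 in KO-labelled and 1.63 to 1.78 in WT-labelled fat. Over all alternatives the member medians ran from 1.31 (without replicate 1 on HFD) to 2.24 (pseudocount 0.1) in KO-labelled fat and from 1.42 (without replicate 2 on HFD) to 2.67 (pseudocount 0.1) in WT-labelled fat. Depth is unknown, so how far counting error limits members under 1 FPKM on chow cannot be stated.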
